A study of Mus musculus with 12 samples.

Results

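The genes described here are 10 receptors of natural killer (NK) cells, namely Klrc1, Klrc2, Klrd1, Klrk1, Klre1, Klri2, Klrb1c, Ncr1, Klrg1 and Klra7. They were chosen by name, as the rows whose Ensembl identifier carries one of these symbols in the mouse annotation, which gave 10 genes of the 55401 listed. Earlier results of these data were known when the names were chosen. RNA was sequenced from 12 subcutaneous mouse tumors grown from TC2Ras, a Ras-driven prostate cancer cell line, and collected 21 days after implantation. There were 4 groups of 3 tumors. Control tumors grew from 125000 TC2Ras cells alone in mice drinking water with 0 ppb inorganic arsenic (iAs), and ASC tumors from TC2Ras cells mixed with 1% ASC-GFP cells, which are adipose-derived stromal cells of male mice, also at 0 ppb. As300 tumors, whose labels read A300, grew from TC2Ras cells alone in mice given 300 ppb iAs, and ASC_As300 tumors, labelled ASC300, had both ASC and 300 ppb iAs. Before implantation all mice had received chow low in arsenic, with Milli-Q water to drink. Both flank tumors of a mouse were combined, so that each tumor named here stands for 1 mouse. The labels give no strain, sex or age of the host mice, and TC2Ras is 1 cell line.

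NK cells kill without prior sensitization, and the balance of their activating and inhibitory receptors decides whether they do. Most of these receptors are C-type lectin-like proteins encoded in 1 stretch of chromosome 6, the NK gene complex. NKG2A (Klrc1) pairs with CD94 (Klrd1) into an inhibitory receptor that reads the nonclassical class I molecule Qa-1, encoded by H2-T23, whereas NKG2C (Klrc2) pairs with CD94 into an activating one, and NKG2D (Klrk1) is an activating receptor for stress-induced ligands such as the Rae-1, H60 and Mult1 proteins. Activated CD8 T cells also carry NKG2A, CD94, NKG2D and KLRG1, so these transcripts do not belong to NK cells alone. Whole tumor pieces were sequenced, and more cells of a type and more RNA per cell cannot be told apart.

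In the reference annotation (GRCm38), 9 of the 10 genes lay on chromosome 6 and Ncr1 lay on chromosome 7. Promoter sequences are shown for the 3 members that rose with ASC over both iAs levels (Klrc1, Klrk1 and Klre1), for Klrc2, the close relative of Klrc1 that was not called, and for Ncr1, a receptor characteristic of NK cells that was not called. Each runs 5′ to 3′ on the gene's strand from 250 bases before to 50 bases after a transcription start and comes from RefSeq (GRCm38.p6). Capitals mark the letters TGTGGT, or ACCACA on the other strand, the core bound by RUNX factors.
Klrc1, chr6:129678924-129679223, minus strand: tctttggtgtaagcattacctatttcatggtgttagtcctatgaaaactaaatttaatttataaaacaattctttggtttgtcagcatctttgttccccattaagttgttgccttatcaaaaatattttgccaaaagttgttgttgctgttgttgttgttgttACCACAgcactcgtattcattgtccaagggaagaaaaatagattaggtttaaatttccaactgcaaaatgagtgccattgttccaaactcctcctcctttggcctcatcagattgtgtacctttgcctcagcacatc
Klrc2, chr6:129660547-129660846, minus strand: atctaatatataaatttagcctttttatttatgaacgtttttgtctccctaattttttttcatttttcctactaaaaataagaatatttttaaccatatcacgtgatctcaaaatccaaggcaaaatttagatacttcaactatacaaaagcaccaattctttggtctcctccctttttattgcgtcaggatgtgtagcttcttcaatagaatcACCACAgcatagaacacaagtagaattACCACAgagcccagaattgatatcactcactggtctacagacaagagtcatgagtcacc
Klrk1, chr6:129623815-129624114, minus strand: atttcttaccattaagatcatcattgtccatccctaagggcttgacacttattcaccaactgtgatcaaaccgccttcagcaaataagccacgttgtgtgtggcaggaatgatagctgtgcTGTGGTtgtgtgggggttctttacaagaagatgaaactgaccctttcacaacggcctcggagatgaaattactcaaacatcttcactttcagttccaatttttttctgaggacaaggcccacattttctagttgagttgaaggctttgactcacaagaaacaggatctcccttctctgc
Klre1, chr6:129577963-129578262, plus strand: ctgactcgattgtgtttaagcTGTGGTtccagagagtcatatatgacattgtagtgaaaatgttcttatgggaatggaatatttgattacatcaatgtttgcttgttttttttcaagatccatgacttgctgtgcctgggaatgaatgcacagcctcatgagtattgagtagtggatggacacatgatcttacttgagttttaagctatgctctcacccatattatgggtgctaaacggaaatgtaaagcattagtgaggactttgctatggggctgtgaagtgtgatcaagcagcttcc
Ncr1, chr7:4337465-4337764, plus strand: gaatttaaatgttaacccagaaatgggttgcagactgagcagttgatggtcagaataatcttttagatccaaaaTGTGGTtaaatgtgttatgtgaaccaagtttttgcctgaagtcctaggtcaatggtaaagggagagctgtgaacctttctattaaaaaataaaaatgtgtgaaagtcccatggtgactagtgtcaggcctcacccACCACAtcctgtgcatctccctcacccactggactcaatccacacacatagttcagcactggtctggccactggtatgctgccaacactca

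Of the 10 members, 7 had a promoter in this collection, in 11 windows of 300 bases, and Klrd1, Klri2 and Klrg1 had none. The RUNX letters occurred in 8 of these 11 windows and in 6 of the 7 genes (Klrc1, Klrc2, Klrk1, Klre1, Klrb1c and Ncr1), beside 16.8% of the 32851 promoter windows of all genes. Windows of 1 gene overlap, and neighbouring relatives share sequence, so the windows are not independent. The STAT site TTCNNNGAA was found in Klra7 only, where 1 of its windows holds it at 2 places, beside 8.3% of all windows. Neither the interferon response element, searched as GAAA, any 2 bases and GAAA again (3.44% of all windows), nor the T-box letters AGGTGTGA (1.28%) occurred in a member's window. All 4 motifs were searched on both strands, and RUNX letters thus stood in promoters of members that were called and of members that were not. The printed windows of Klrc1 and Klrc2 aligned with 179 identical bases of 244 aligned, or 73.4%. Bases opposite gaps are left out of the 244, out of 300 in each window. No value for unrelated promoters was computed.

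Total counts ran from 39157647 to 55168642 per tumor, and all 10 members were among the 20818 genes that passed the filter on low counts. Members were low: a single tumor held between 3 counts (Klrc2 in As300 replicate 1) and 605 counts (Klrk1 in ASC replicate 1). The number of counts per read pair could not be established: low counts were more frequent at 4 (1137 to 1298 genes per tumor) than at 3 (618 to 795) or 5 (380 to 414). The labels call the material adipose-derived stromal cells, but the tumors also held epithelial, macrophage and T cell transcripts, and it is treated here as tumor tissue. The summed level of 6 stromal and fibroblast genes lay between 1807 and 3420 CPM (counts per 1000000 counts of the normalized library) in every tumor, and that of 5 macrophage genes between 371 and 640. Control replicate 1 stood apart, with 192.7 CPM summed over 7 B cell and plasma cell markers against 2.18 to 14.3 in the other 11 tumors, and 162.2 CPM over lymph node markers against 9.64 to 26.1. Its T cell markers summed to 119.3 CPM against 20.8 to 23.9 in the other Control tumors. The calls of members are therefore also given without this tumor.

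Klrc1 (ENSMUSG00000030167, chromosome 6, 129666015 to 129678973, minus strand), which encodes NKG2A, had the largest ASC difference of the 10 members. Its level was 1.20, 0.844 and 1.19 CPM in the Control tumors and 1.15, 0.409 and 0.441 CPM in the As300 tumors. With ASC it was 4.47, 3.19 and 4.24 CPM, and with ASC and iAs together 5.45, 4.60 and 6.79 CPM. Every tumor with ASC was above every tumor without, whether or not the mouse drank iAs, as in 1.68% of all genes tested. The ASC_As300 tumors lay above all ASC tumors, as in 4.17% of all genes tested. That difference was 0.50 on the log2 scale (SE 0.36, unadjusted p = 0.188 in the edgeR quasi-likelihood test) and was not called.

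Klrc1 rose 3.68-fold from Control to ASC (log2 fold change 1.88, SE 0.38), and it was the 1 member of 10 called up there, where 0.706% of all genes tested were called up. A call here means a Benjamini-Hochberg adjusted p below 0.05 in the edgeR quasi-likelihood test, over all 20818 genes, with at least a 1.5-fold change, and for this gene the adjusted p was 0.0405. That call lies near the threshold: without Control replicate 1 the log2 fold change was 1.97 with an adjusted p of 0.066 in edgeR, and the call was also lost without Control replicate 2 or 3, ASC replicate 2 or 3, or any 1 of the 3 ASC_As300 tumors (adjusted p 0.0631 to 0.154). From Control to ASC_As300 Klrc1 rose 5.20-fold (log2 2.38, SE 0.38, adjusted p = 0.00862 in edgeR), again the 1 member called up, beside 0.783% of all genes. The adjusted p was 0.0225 without Control replicate 1, and the call was lost without Control replicate 2 (0.0529) or ASC_As300 replicate 3 (0.0522).

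Among iAs-exposed tumors the same gene was 8.48-fold higher with ASC (log2 3.08, SE 0.39, adjusted p = 0.00154 in edgeR, and 3.07 with 0.00171 without Control replicate 1). Taken over both iAs levels, as the mean of the difference without iAs and the difference with iAs, the log2 fold change with ASC was 2.48 (SE 0.27, adjusted p = 0.000209 in edgeR), ranking 74 of all genes by p-value. This pooled rise stayed called under all 20 alternatives, with the largest adjusted p at 0.00104, and without Control replicate 1 it was 2.52. All comparisons with Control use the same Control tumors, so they are not independent of each other.

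**Figure D1:**
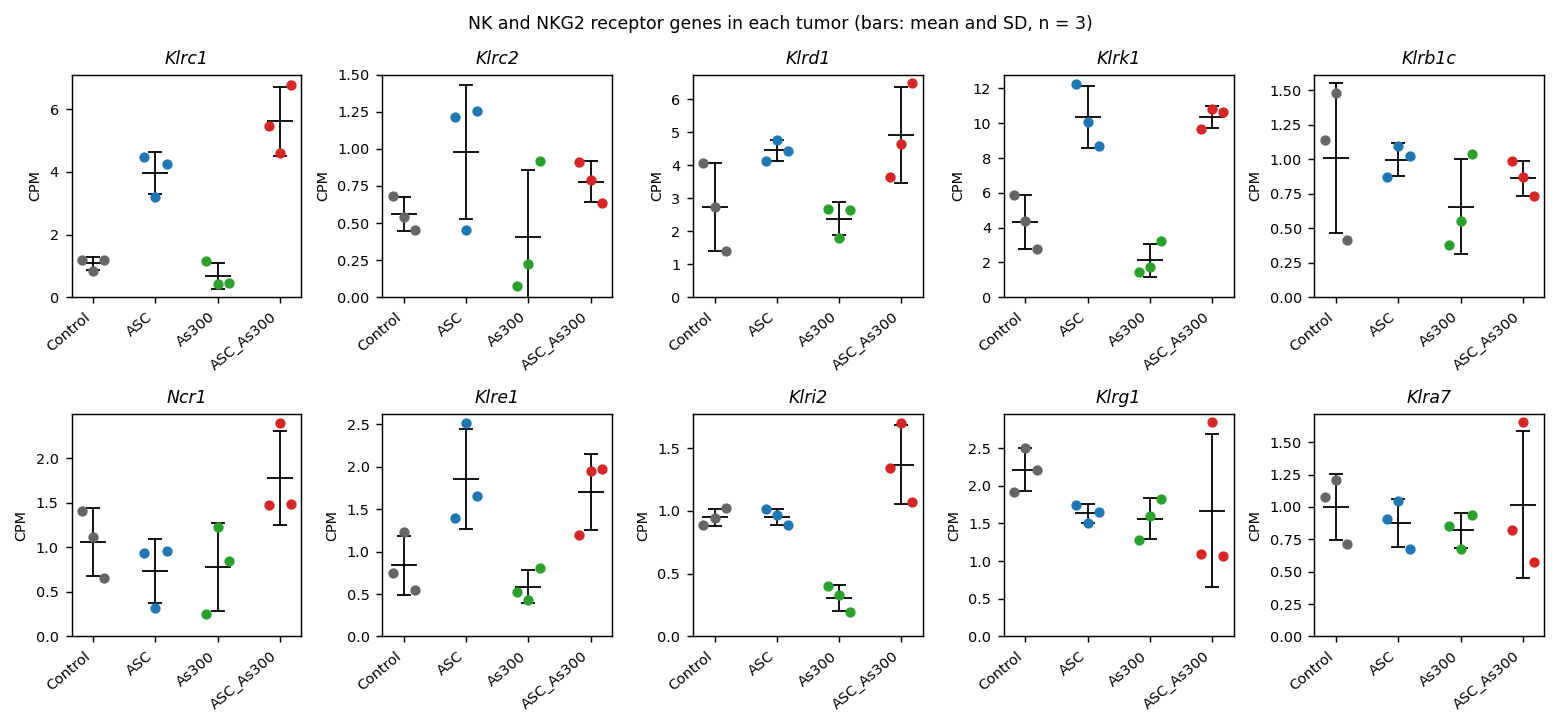
Level of each of the 10 receptor genes in CPM (vertical axis, linear, from 0) in every tumor, by group (horizontal axis), with points for tumors in the order of replicates 1 to 3, and a bar for the mean with the SD of 3 tumors. The lower bar of Klrc2 in As300 ends at the axis. Klrc1 and Klrk1 are higher in all 6 tumors with ASC than in all 6 without, Klri2 is lowest in the 3 As300 tumors, and Klrg1 and Klra7 overlap across the groups with ASC and without.

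Klrd1 encodes CD94, the partner of NKG2A and of NKG2C. It measured 4.05, 2.74 and 1.39 CPM in Control and 2.68, 1.80 and 2.65 CPM in As300. In ASC it measured 4.13, 4.77 and 4.43 CPM, and in ASC_As300 3.63, 4.64 and 6.49 CPM. The ASC_As300 tumors were all above the As300 tumors, while Control replicate 1 reached above the lowest ASC_As300 tumor. Over both iAs levels Klrd1 was 1.84-fold higher with ASC (log2 0.88, SE 0.25), which did not pass in edgeR (adjusted p = 0.128). Without Control replicate 1 it was 1.07 on the log2 scale and passed (adjusted p = 0.0305 in edgeR), and DESeq2 called it with all 12 tumors (log2 0.87, adjusted p = 0.0206).

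Relative to Klrd1, Klrc1 stood at 0.296, 0.308 and 0.859 Klrc1 counts per Klrd1 count in Control and 0.430, 0.227 and 0.167 in As300. The ratio was 1.08, 0.669 and 0.958 in ASC, and 1.503, 0.991 and 1.05 in ASC_As300. All 3 ASC_As300 tumors were thus above all tumors without ASC in this ratio, while Control replicate 3 lay above ASC replicate 2.

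Klrc2, the gene of the activating NKG2C, was low in all groups. Its levels were 0.682, 0.537 and 0.456 CPM in Control, 1.21, 0.456 and 1.26 in ASC, 0.0751, 0.225 and 0.918 in As300 and 0.912, 0.790 and 0.633 in ASC_As300. The groups overlapped, with a log2 fold change over both iAs levels of 0.86 (SE 0.49, adjusted p = 0.586 in edgeR). Klrc1 and Klrc2 are close copies: of the 75-base stretches of Klrc1 transcripts, 20.4% occur in Klrc2 as well, and 8.26% of those of Klrc2 occur in Klrc1. Reads from such stretches could be assigned to either gene, so both levels carry this uncertainty.

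NKG2D, encoded by Klrk1 (ENSMUSG00000030149, chromosome 6, 129610323 to 129623864, minus strand), was the other member whose tumors with and without ASC did not overlap. Klrk1 measured 5.87, 4.39 and 2.76 CPM in Control and 1.45, 1.72 and 3.21 CPM in As300. It measured 12.2, 10.1 and 8.72 CPM in ASC and 9.64, 10.8 and 10.6 CPM in ASC_As300. Hence the lowest tumor with ASC was at 8.72 CPM and the highest without at 5.87 CPM, which was Control replicate 1. No 75-base stretch of its transcripts occurred in another gene.

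Klrk1 was 3.40-fold higher with ASC over both iAs levels (log2 1.77, SE 0.22, adjusted p = 0.000721 in edgeR). It was called under all 20 alternatives (largest adjusted p 0.00365), and without Control replicate 1 the log2 fold change was 1.90. Within the iAs-exposed tumors it was 4.85-fold higher with ASC (log2 2.28, SE 0.32, adjusted p = 0.00325 in edgeR, and 2.27 with 0.00174 without Control replicate 1). Without iAs the difference was 1.25 on the log2 scale (SE 0.31) and did not pass (adjusted p = 0.1 in edgeR), although it passed without As300 replicate 3 (0.0476), a tumor outside that pair of groups, which enters through the shared estimate of spread. Against Control, ASC_As300 tumors differed by a log2 fold change of 1.26 (adjusted p = 0.0892 in edgeR, and 0.0419 without As300 replicate 3), and As300 tumors by -1.02 (adjusted p = 0.0812 in edgeR).

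Klre1 and Klri2 encode lectin-like receptors that form a heterodimer, which is activating where KLRE1 pairs with KLRI2. Klre1 measured 0.744, 1.23 and 0.542 CPM in Control, 1.40, 2.52 and 1.65 in ASC, 0.525, 0.429 and 0.812 in As300 and 1.19, 1.96 and 1.98 in ASC_As300. All ASC tumors lay above all Control tumors, and all ASC_As300 tumors above all As300 tumors. Over both iAs levels Klre1 was 2.52-fold higher with ASC (log2 1.33, SE 0.30, adjusted p = 0.0366 in edgeR). The call was lost without Control replicate 1 (log2 1.29, adjusted p = 0.0662 in edgeR), and likewise without Control replicate 3, ASC replicate 2 or 3, As300 replicate 1 or 2, or ASC_As300 replicate 2 or 3 (0.0608 to 0.109), and it was also lost without a filter on low counts (0.0625).

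Klri2 (ENSMUSG00000043932, chromosome 6, 129729041 to 129740484, minus strand) followed another order. Its level was 0.889, 0.940 and 1.02 CPM in Control and 1.01, 0.965 and 0.886 CPM in ASC. It was 0.400, 0.327 and 0.194 CPM in As300, from 16, 16 and 11 counts, and 1.34, 1.70 and 1.07 CPM in ASC_As300. Control and ASC tumors covered nearly the same range, the As300 tumors lay below every other tumor, and the ASC_As300 tumors lay above every other tumor. Taken by pairs, As300 tumors lay below all Control tumors in 15.4% of all genes, and ASC_As300 tumors above all ASC tumors in 4.17%.

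From Control to As300, Klri2 fell 3.10-fold (log2 fold change -1.63, SE 0.37, adjusted p = 0.045 in edgeR), the 1 member called down, where 0.355% of all genes tested were, or 74 genes. Leaving out any 1 Control tumor or any 1 ASC_As300 tumor, or correcting for GC content, left 0 genes of all tested called down in this comparison in edgeR, where 5025 had an unadjusted p below 0.05 in either direction with all tumors, and DESeq2 called 321 down. Without Control replicate 1 the log2 fold change was -1.66 (adjusted p = 0.0799 in edgeR), and leaving out any other Control tumor, any As300 tumor, any ASC_As300 tumor or ASC replicate 2 also ended the call (0.0563 to 0.186). Among iAs-exposed tumors Klri2 was 4.46-fold higher with ASC (log2 2.16, SE 0.38, adjusted p = 0.0157 in edgeR, and 0.0177 without Control replicate 1). This call was lost without As300 replicate 2 or 3 or ASC_As300 replicate 1 or 2 (0.0562 to 0.0896), and with only the groups compared (0.0578). Over both iAs levels its log2 fold change with ASC was 1.08 (SE 0.26, adjusted p = 0.0559 in edgeR).

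Ncr1 (NKp46) and Klrb1c (NK1.1) are the members most used to define NK cells in mice. Ncr1 measured 1.41, 1.11 and 0.651 CPM in Control, 0.931, 0.322 and 0.956 in ASC, 0.250, 1.23 and 0.847 in As300 and 1.47, 2.39 and 1.48 in ASC_As300. Control, ASC and As300 tumors overlapped, whereas the 3 ASC_As300 tumors were above all others. Taken by pairs, ASC_As300 tumors were above all Control, all As300 and all ASC tumors in 13.5%, 11.3% and 4.17% of all genes. No share was counted for 1 group apart from all others. From ASC to ASC_As300 the log2 fold change of Ncr1 was 1.27 (SE 0.57, adjusted p = 1 in edgeR), and over both iAs levels the difference with ASC was 0.34 (SE 0.40, adjusted p = 0.843).

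Klrb1c measured 1.14, 1.48 and 0.412 CPM in Control, 0.870, 1.099 and 1.03 in ASC, 0.375, 0.552 and 1.04 in As300 and 0.986, 0.869 and 0.732 in ASC_As300. Its groups overlapped in every comparison, with a log2 fold change of 0.18 over both iAs levels with ASC (SE 0.35, adjusted p = 0.913 in edgeR) whose sign is not settled, since it was -0.000499 without Control replicate 3. Of the 75-base stretches of its transcripts 13.2% occur in other genes, mostly in Gm44511, which shares 413 exonic bases with it on the same strand. The NK transcription factor Eomes averaged 3.10 CPM in Control, 4.08 in ASC, 2.68 in As300 and 4.07 in ASC_As300 (SD 0.679, 1.22, 0.995 and 0.997, n = 3 each), and its adjusted p over both iAs levels was 0.467 in edgeR. Ncr1, Klrb1c and Eomes thus did not pass the test with ASC. Eomes, named here after its values were seen, is 1 of 20 other NK cell genes, of which 8 were called, beside 1.36% of all genes called up.

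Klrg1, an inhibitory receptor for cadherins found on mature NK and effector T cells, measured 1.92, 2.49 and 2.21 CPM in Control, 1.74, 1.501 and 1.65 in ASC, 1.28, 1.59 and 1.82 in As300 and 1.098, 2.84 and 1.07 in ASC_As300. Both ASC and As300 tumors lay below all Control tumors, as they did in 9.01% and 15.4% of all genes tested. Its log2 fold change with ASC over both iAs levels was -0.17 (SE 0.26, adjusted p = 0.891 in edgeR). Klra7 encodes Ly49G2, an inhibitory receptor for classical class I molecules, and measured 0.716 to 1.21 CPM over the Control tumors and 0.574 to 1.66 CPM over the ASC_As300 tumors, with ASC (0.676 to 1.05) and As300 (0.675 to 0.936) inside that range. For Klra7 the difference with ASC over both iAs levels was 0.06 (SE 0.30, adjusted p = 0.972 in edgeR), and its sign turned under 5 of 20 alternatives, the lowest value being -0.21 without ASC_As300 replicate 2.

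Across the members, the ASC effect over both iAs levels called 3 of 10 up (Klrc1, Klrk1 and Klre1) and none down, beside 1.36% of all genes called up. The members were chosen with earlier results of these data known, so the counts and medians here describe the set and do not test it. The median log2 fold change of the 10 members was 0.87 and that of all genes tested -0.00420, and 9 of 10 members, all but Klrg1, were above 0, against 49% of all genes. With ASC_As300 against As300, Klrc1, Klrk1 and Klri2 were called up, 3 of 10 beside 0.793% of all genes, with a median of 1.12. With As300 against Control all 10 members had a log2 fold change below 0 (median -0.50, against -0.03 over all genes, of which 47.5% were above 0), and 1 of them was called. In that comparison, leaving out Control replicate 1 gave 0.22 for Klrd1 and -0.73 for Klrk1. The members other than Klrd1 stayed below 0. Without Control replicate 1, Klrc1, Klrd1 and Klrk1 were called in the ASC effect over both iAs levels.

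Groups that did not overlap were counted as well. All ASC tumors were above all Control tumors for 4 members (Klrc1, Klrd1, Klrk1 and Klre1), beside 9.94% of all genes, and all ASC_As300 tumors were above all As300 tumors for 6 members (those 4, Ncr1 and Klri2), beside 11.3%. ASC_As300 tumors exceeded all Control tumors for 4 members (Klrc1, Klrk1, Ncr1 and Klri2), beside 13.5% of all genes, and all ASC tumors for 3 (Klrc1, Ncr1 and Klri2), beside 4.17%. As300 tumors lay below all Control tumors for 2 members (Klri2 and Klrg1), beside 15.4% of all genes. With all 6 tumors of each kind, Klrc1 and Klrk1 were the members higher with ASC without overlap.

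**Figure D2:**
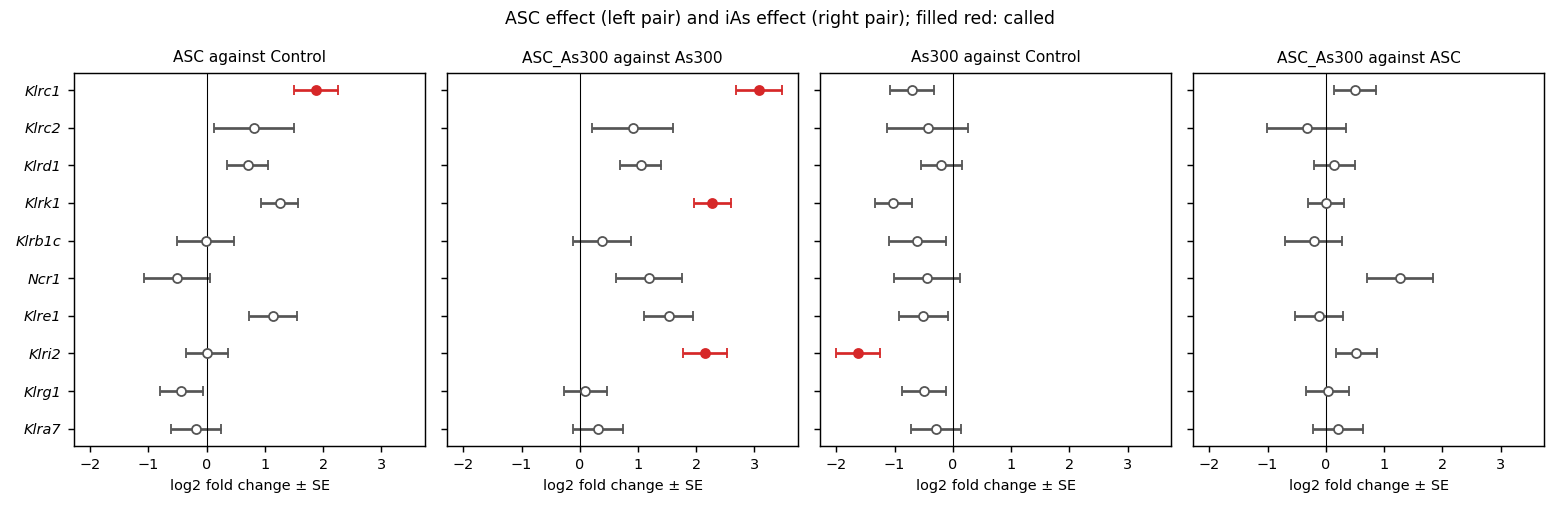
Log2 fold change of each member (rows) with its SE as bars, for ASC in the absence and presence of iAs (left pair of panels) and for iAs in the absence and presence of ASC (right pair), with filled red points for calls. Klrc1 is called in both ASC panels (1.88 and 3.08), Klrk1 and Klri2 with ASC among iAs-exposed tumors (2.28 and 2.16), and Klri2 lies at -1.63 for As300 against Control.

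The effect of iAs over both ASC levels called none of the members, and it called 0 genes of all tested in edgeR, where 3325 had an unadjusted p below 0.05, while DESeq2 called 114 genes and none of the members. Unadjusted p-values below 0.05 were found for 2 members, Klrk1 (log2 -0.51, adjusted p = 0.289 in edgeR) and Klri2 (-0.56, adjusted p = 0.311 in edgeR). ASC_As300 against ASC likewise gave 0 calls over all genes in edgeR (669 at an unadjusted p below 0.05, and 11 by DESeq2), and of the members Ncr1 alone was below 0.05 unadjusted. DESeq2 called 0 members there.

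Whether the ASC effect differed between iAs levels was tested by the interaction, which called 0 members and 0 genes of all tested in edgeR (2836 genes at an unadjusted p below 0.05, and 174 called by DESeq2). The interaction was above 0 for all 10 members, with a median of 0.51 on the log2 scale, beside 50.8% of all genes above 0. Without Control replicate 1 it was -0.0808 for Klrc2 and -0.0749 for Klrd1, and it stayed above 0 for the other members. With all tumors the interaction was 2.15 for Klri2 (adjusted p = 0.309 in edgeR), 1.21 for Klrc1 (adjusted p = 0.349) and 1.03 for Klrk1 (adjusted p = 0.345), the 3 members with an unadjusted p below 0.05. Of the members, Klri2 was called by DESeq2. The larger ASC differences among iAs-exposed tumors were therefore not distinguished from those without iAs by the edgeR test.

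To compare genes with each other, CPM was divided by exonic length in kb. In Control, Klrd1 was the most abundant member at 2.13 ± 1.04 CPM per kb (SD, n = 3), followed by Klrg1 at 1.56 ± 0.202, and then by Klra7, Ncr1, Klrk1 and Klrc1, between 0.790 and 0.544. Klrc2 was the lowest at 0.0961 ± 0.0197. In ASC the order was Klrd1 (3.47 ± 0.250), Klrc1 (2.0 ± 0.345), Klrk1 (1.44 ± 0.248) and Klrg1 (1.15 ± 0.0861), and in ASC_As300 Klrd1 (3.84 ± 1.13), Klrc1 (2.83 ± 0.555), Klrk1 (1.44 ± 0.0897) and Klrg1 (1.18 ± 0.719). Klrc1 thus moved from the sixth place in Control to the second with ASC. In As300 the 4 members from Klra7 at 0.649 to Klrk1 at 0.296 CPM per kb lay close together, with SDs of 0.105 to 0.320 for Klra7, Ncr1, Klrc1 and Klrk1. In Control the intervals of mean ± SD of the neighbours Klrd1 and Klrg1 overlapped, as did those of Klra7, Ncr1 and Klrk1 and those of Klrk1 and Klrc1, whereas those of Klrg1 and Klra7 did not. Among the first 4 members in ASC, Klrc1 overlapped with Klrk1 and Klrk1 with Klrg1, but Klrd1 not with Klrc1, and in ASC_As300 Klrd1 overlapped with Klrc1 and Klrk1 with Klrg1, but Klrc1 not with Klrk1.

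Among the genes of the ligands, H2-T23, whose product Qa-1 is bound by the receptor of NKG2A and CD94, averaged 67.4 ± 12.3 CPM in Control, 145 ± 18.5 in ASC, 80.1 ± 2.27 in As300 and 153 ± 20.9 in ASC_As300 (SD, n = 3). All 6 tumors with ASC, at 125 to 169 CPM, were above all 6 without, at 59.7 to 82.0 CPM. Its log2 fold change with ASC over both iAs levels was 1.02 (SE 0.10, adjusted p = 6.34e-05 in edgeR). The class I heavy chain genes H2-D1 (1.08, SE 0.10, adjusted p = 7.4e-05 in edgeR) and H2-K1 (1.35, SE 0.15, adjusted p = 0.000221) and the light chain gene B2m (0.95, SE 0.08, adjusted p = 1.53e-05) rose as well.

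These were the 4 genes called of the 11 tested among 16 listed ligands, beside 1.36% of all genes called up. The ligands of NKG2D were not called: Ulbp1, which encodes Mult1, averaged 50.4 CPM in Control, 34.4 in ASC, 35.9 in As300 and 37.7 in ASC_As300, and Raet1e 20.9, 23.2, 22.9 and 26.4 CPM in the same order. Over the 11 genes the median log2 fold change with ASC was 0.14, against -0.00420 over all genes.

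**Figure D3:**
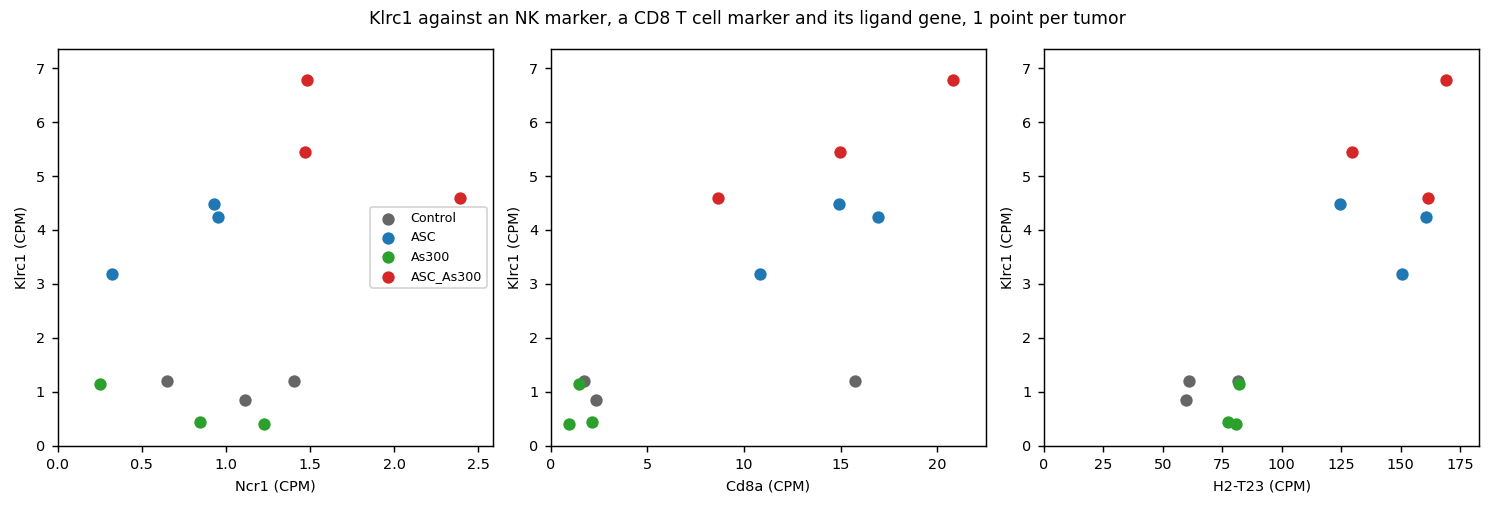
Klrc1 level (vertical axis, CPM) against Ncr1, Cd8a and H2-T23 (horizontal axes, CPM), with 1 point per tumor coloured by group. The 6 tumors with ASC lie above the others in Klrc1 and, for H2-T23, to the right of them (125 to 169 against 59.7 to 82.0 CPM), while their Ncr1 levels overlap with those of the other tumors and Control replicate 1 has 15.8 CPM of Cd8a with 1.20 CPM of Klrc1.

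Of 14 genes listed as adapters and signalling genes of NK receptors, 13 were higher with ASC over both iAs levels and 3 were called, with a median of 0.62. Among all genes tested, 49% were above 0 in that comparison and 1.36% were called up. Fcer1g, an adapter of activating receptors, rose by 0.75 on the log2 scale (SE 0.08, adjusted p = 0.00021 in edgeR), Lcp2 by 0.72 (adjusted p = 0.0182) and the kinase gene Zap70 by 1.29 (adjusted p = 0.0382). Tyrobp, which encodes DAP12, reached 0.49 (adjusted p = 0.0116 in edgeR), under the 1.5-fold minimum. The Zap70 call was lost without any 1 of 10 tumors, all but Control replicate 1 and ASC_As300 replicate 1 (adjusted p 0.0597 to 0.113 in edgeR), and that of Lcp2 without As300 replicate 2, ASC_As300 replicate 2 or ASC_As300 replicate 3 (0.0537 to 0.0568). Hcst, which encodes DAP10, the partner of NKG2D, averaged 1.20, 1.998, 1.14 and 1.43 CPM in Control, ASC, As300 and ASC_As300 (adjusted p = 0.711). The count of the list was 7 without Control replicate 1, where Cd247, Lat, Sh2d1a and Ptpn6 were called besides. It was 1 without As300 replicate 2, ASC_As300 replicate 2 or ASC_As300 replicate 3. Fcer1g and Tyrobp are also abundant in macrophages, whose 5 markers gave 0 calls in edgeR and DESeq2 (1 at an unadjusted p below 0.05). Of these markers 4 were above 0, with a median of 0.17, and Adgre1 reached 0.48 (adjusted p = 0.141 in edgeR). The part of macrophages in the levels of Fcer1g and Tyrobp was not tested, nor was the part of T cells in the levels of Zap70 and the other genes of this list.

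Other genes of NK cell identity and survival rose with ASC in 8 of 20 (Il2rb, Il15, Il15ra, Nkg7, Cd160, Slamf7, Fasl and Tnfsf10), with a median of 1.09 and 19 of 20 above 0. Those 8 were called over both iAs levels, where 1.36% of all genes were called up and 49% lay above 0. Il2rb, a receptor chain for interleukins 2 and 15, stood at 13.5 ± 5.74 CPM in Control, 35.3 ± 6.22 in ASC, 8.35 ± 3.01 in As300 and 35.9 ± 4.84 in ASC_As300 (SD, n = 3). Its log2 fold change was 1.74 (SE 0.21, adjusted p = 0.000367 in edgeR). Il15ra, which presents interleukin 15, rose by 1.38 (adjusted p = 2.45e-05), the receptor gene Slamf7 by 1.24 (adjusted p = 0.000492) and Tnfsf10, which encodes the death ligand TRAIL, by 1.82 (adjusted p = 0.00147). Several of them are expressed by T cells or myeloid cells too. The genes called in the lists of ligands, of adapters and signalling genes and of other NK cell genes stayed called without Control replicate 1, with the largest adjusted p at 0.0335 (Cd160, edgeR).

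Further lectin-like receptors of the NK gene complex numbered 18 in the list, 17 in the table and 14 tested. With ASC over both iAs levels 13 of these 14 were higher, and Klra2 (1.54, SE 0.24, adjusted p = 0.00357 in edgeR) and Klrb1b (1.06, SE 0.17, adjusted p = 0.00379) were called. The shares over all genes were 49% higher and 1.36% called up. Klra2 was at 5.88 ± 2.25 CPM in Control, 14.3 ± 2.79 in ASC, 4.05 ± 1.78 in As300 and 14.04 ± 2.66 in ASC_As300 (SD, n = 3). Klra3 and Klra9 had log2 fold changes of 1.01 and 1.46 that did not pass (adjusted p = 0.44 and 0.445). These genes were listed by their place in the complex, which does not tell which cells express them. The part of macrophages or other cells in the levels of Klra2 and Klrb1b was not tested.

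Summed T cell markers were higher in all tumors with ASC than in the As300 tumors and Control replicates 2 and 3. Control replicate 1 had the highest sum, with 1.20 CPM of Klrc1 and 5.87 CPM of Klrk1. The 12 marker genes summed to 72.5 to 95.8 CPM in ASC and 63.4 to 98.5 in ASC_As300, against 19.5 to 27.0 in As300 and 20.8, 23.9 and 119.3 in Control. With ASC over both iAs levels 11 of 12 were above 0, with a median of 1.25, and 1 was called, Cd8a (2.20, SE 0.49, adjusted p = 0.0381 in edgeR). The shares over all genes were 49% above 0 and 1.36% called up. Cd8b1, Cd3g and Lck followed at 2.13, 1.62 and 1.03 (adjusted p = 0.119, 0.129 and 0.172). Without Control replicate 1, 11 of 12 were called, and Cd8a was at 3.04 (adjusted p = 6.21e-05), whereas 0 were called without any 1 of 10 other tumors, all but ASC_As300 replicate 2.

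Set against Cd8a, the Klrc1 levels of tumors with ASC overlapped with those of tumors without. Per 100 Cd8a counts there were 7.60, 36.4 and 68.8 Klrc1 counts in Control, 30.0, 29.4 and 25.1 in ASC, 79.3, 43.5 and 20.7 in As300 and 36.5, 53.1 and 32.6 in ASC_As300, so that all ASC_As300 tumors lay above all ASC tumors. For Klrk1 there were 37.2, 189.3 and 158.8 per 100 Cd8a counts in Control, 82.2, 92.8 and 51.5 in ASC, 100, 182.6 and 150.4 in As300 and 64.5, 125.1 and 51.1 in ASC_As300. In this ratio the As300 tumors all lay above the ASC tumors, and the other groups overlapped with each other and with both. Against Ncr1, by contrast, Klrc1 stood at 85.3, 75.9 and 183.3 per 100 Ncr1 counts in Control and 480.4, 991.7 and 443.9 in ASC, and at 460.0, 33.3 and 52.1 in As300 and 370.9, 192.6 and 457.3 in ASC_As300. The ASC tumors were thus above the Control tumors in this ratio, while As300 replicate 1, with 10 Ncr1 counts, overlapped with the ASC_As300 tumors. The part of T cells in the members' levels was not tested.

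**Figure D4:**
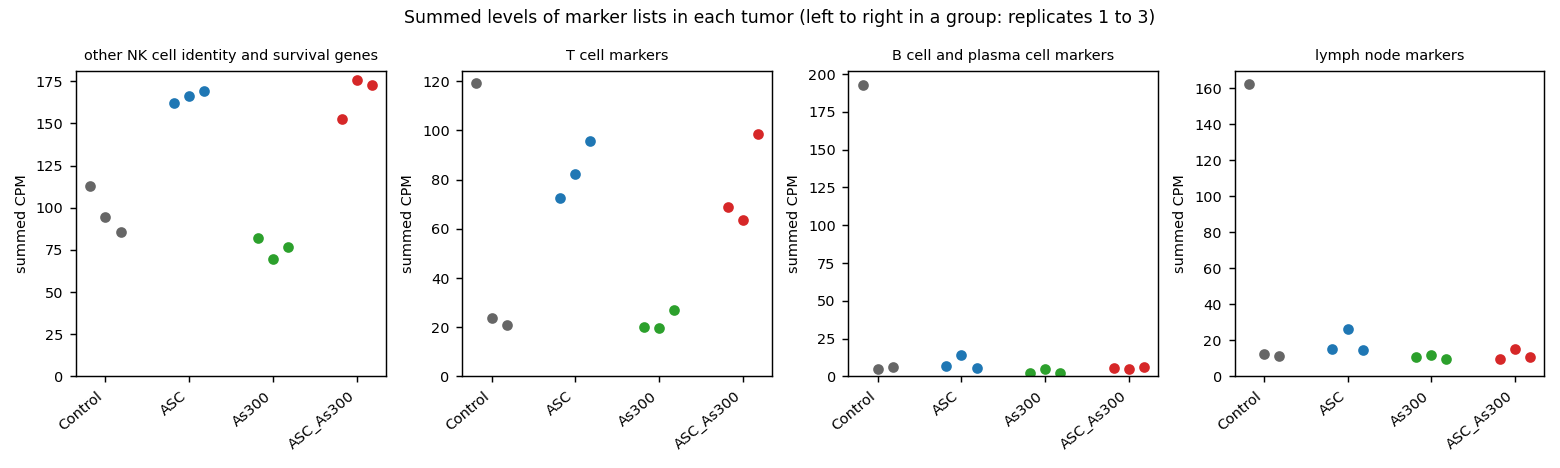
Summed CPM (vertical axes, linear, from 0) of the lists of other NK cell genes, T cell markers, B cell and plasma cell markers and lymph node markers in every tumor, by group, with replicates 1 to 3 from left to right. The list of other NK cell genes sums to 153 to 176 CPM in the 6 tumors with ASC and to 69.5 to 112.8 in the 6 without. Several genes of this list are expressed by T cells or myeloid cells too. Control replicate 1 stands at 119.3, 192.7 and 162.2 CPM in the other lists.

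Among the other marker lists, Krt8, a keratin of epithelial cells, fell with ASC by 2.03 on the log2 scale (adjusted p = 0.00632 in edgeR), as the 1 gene called of 5. These 5 genes summed to 360.4 CPM in Control replicate 1 and to 64.2 and 92.9 CPM in the other Control tumors, and without Control replicate 1 Krt8 fell by 1.48 (adjusted p = 0.000127 in edgeR). B cell and plasma cell markers (7 tested), lymph node markers (7) and stromal and fibroblast markers (6) gave 0 calls in edgeR and in DESeq2, with 1, 2 and 1 genes at an unadjusted p below 0.05.

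Over the 12 tumors, the levels of the members were related to different degrees. Pearson's r of log2 CPM with Klrc1 was 0.85 for Klrk1, 0.78 for Klri2, 0.77 for Klre1, 0.76 for Klrd1, 0.47 for Klrc2, 0.23 for Ncr1, 0.18 for Klrb1c, -0.02 for Klra7 and -0.30 for Klrg1. The highest value of any pair was 0.89, for Klrk1 and Klre1. Among the 20808 other genes tested, the most similar to Klrc1 were Gm4951 (0.98), Snx10, Irgm2, Gm4841 and Dtx3l (0.96 each), and those most similar to Ncr1 were Zfp28 (0.89), Med26 (0.88), Cog2 (0.87), Gm7363 (0.87) and Zfp687 (0.86). Irgm2 averaged 15.9 CPM in Control, 93.4 in ASC, 10.6 in As300 and 84.3 in ASC_As300, whereas Zfp28 averaged 8.97, 8.16, 7.77 and 10.4 CPM. These values describe tumors that share groups and include the difference between groups, and are given without a test.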

How the data were processed

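RNA of 12 tumors was sequenced by the authors from poly(A)-selected stranded libraries in paired-end runs. The deposited table holds whole-number counts per Ensembl gene that are not normalized; the submitters' processing notes name cutadapt 1.1.0, HISAT2 2.0, StringTie 1.3.4, DESeq2 and edgeR, and the genome build, annotation and use of strand in counting are not given in the sources used here. Of 55401 genes, 55141 had a symbol in GENCODE M21 (GRCm38), which also gave coordinates and lengths, and 260 had none. Promoters came from RefSeq. Total counts were 39157647 to 55168642 per tumor, and low counts limit the precision of the members.

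Genes were filtered with filterByExpr (20818 kept) and normalized by TMM (factors 0.953 to 1.05). The edgeR quasi-likelihood test was fitted to all 12 tumors with 1 mean per group, with edgeR 4.0.16 in R 4.3.3, for 8 comparisons (DESeq2 1.42.0 served as an alternative). P-values were adjusted by Benjamini-Hochberg over all genes tested; a call needed an adjusted p below 0.05 and 1.5-fold. CPM use TMM library sizes, and log2 CPM a prior count of 2. An exact test of 3 against 3 cannot go below 0.1. The procedure was also run on simulated counts with known changes, whose outcome is not given here and is not used as support for the calls. The members and the 10 companion lists were chosen with earlier results of these data known. All members are named, with up to 4 genes of each list by smallest unadjusted p in the ASC effect over both iAs levels, and the 5 genes most correlated with Klrc1 and with Ncr1. Ulbp1 and the other NKG2D ligands, Eomes, Hcst and the called Nkg7, Cd160, Fasl and Il15 do not come from that rule. Their values were known when they were picked. Alternatives were other normalization, filters and divisors, DESeq2, a replicate term, a correction for GC content, fewer groups in the fit, no fold minimum, and each tumor left out. Same-numbered tumors did not deviate together (18 pairs, correlations -0.124 to 0.172), so the numbers were not taken as pairs.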

Additional observations from a re-analysis of the deposited data

Results flagged for a closer look

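Klri2 had opposite differences with iAs in the absence and in the presence of ASC: all 3 As300 tumors (0.194 to 0.400 CPM) lay below all Control tumors (0.889 to 1.02 CPM), and all 3 ASC_As300 tumors (1.07 to 1.70 CPM) lay above all ASC tumors (0.886 to 1.01 CPM). Only the difference without ASC was called in edgeR, and that call was lost in 14 of 21 alternatives. With ASC the log2 fold change was 0.52 (SE 0.35, unadjusted p = 0.168 in edgeR), which was not called, so a reversal is not established. The difference between both effects was 2.15 on the log2 scale (adjusted p = 0.309 for the interaction in the edgeR quasi-likelihood test), ranking 51 by p-value among all genes tested. It was positive under all 20 alternatives, with adjusted p-values from 0.0406 (DESeq2 Wald test) to 0.571. Of the 20818 genes tested, 132 (0.634%) had opposite differences with iAs without overlap. The As300 tumors held 16, 16 and 11 counts of the gene.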

How the results depend on the processing

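The count of members called moved with the processing where a call lay near the threshold. From Control to ASC it was 1, but 0 without a filter on low counts or with only the groups compared, and 2 with the DESeq2 Wald test. From Control to As300 it was 1, but 0 without the filter, with the GC correction or with only the groups compared, and 2 with DESeq2. From Control to ASC_As300 it was 1, but 2 with the GC correction and 2 with DESeq2. DESeq2 also called 5 members in place of 3 for ASC over both iAs levels and 1 in place of 0 in the interaction, and it was run on 33928 genes. Leaving out 1 tumor at a time gave 0 to 2, 0 to 1 and 0 to 2 calls in those 3 comparisons with Control. With DESeq2 the calls over all genes rose as well, from 150 to 450, 220 to 816 and 168 to 390 in those 3 comparisons, 301 to 478 for ASC over both iAs levels, 0 to 174 in the interaction and 178 to 399 for ASC_As300 against As300, where 4 members were called in place of 3 (Klre1, adjusted p = 0.0464). For As300 against Control 0 genes of all tested were called with the GC correction or without any 1 Control tumor. The cause was not tested. Klrc1 and Klrk1 were called in the ASC effect over both iAs levels in each of the 20 alternatives run.

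With a replicate block, the count for As300 against Control was 0 in place of 1 (Klri2, adjusted p = 0.0529) and Klre1 lost its call for ASC over both iAs levels (0.0547). The block changed no other call of a member, and 4 of 12 tumors were closest to a tumor of their own number. The log2 fold change of Klra7 with ASC turned to -0.00360 under the block, and ran from -0.21 to 0.20 with 1 tumor left out, with values below 0 of -0.0344, -0.0110, -0.00181 and -0.21; that of Klrb1c ran from -0.000499 to 0.43.

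Of the values of single genes and lists recomputed, 1001 kept direction and side of the threshold, 66 lost a call, 19 gained one, 17 counts moved and 6 turned sign. Depth limits Klri2, Klrc2 and Ncr1 most, with as few as 11, 3 and 10 counts in a tumor.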
